A study of Rattus norvegicus with 12 samples.

Results

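Inhibitory receptors on sensory neurons were followed through the dorsal root ganglia of rats given 1 of 2 chemotherapy drugs. The 10 genes described are receptors that couple to inhibitory G proteins, found by their symbols among the 20152 genes listed over 12 RNA-seq libraries. They are the mu, delta and nociceptin opioid receptors (Oprm1, Oprd1, Oprl1), the cannabinoid receptor CB1 (Cnr1), both subunits of the GABA-B receptor (Gabbr1, Gabbr2), the adenosine A1 receptor (Adora1), the muscarinic M2 receptor (Chrm2), the neuropeptide Y receptor Y1 (Npy1r) and the galanin receptor GalR1 (Galr1). All 10 were listed in every library and passed the filter on low counts that left 15809 genes. The rats had received vehicle (4 libraries), paclitaxel at 2.0 mg/kg (4 libraries) or oxaliplatin at 2.4 mg/kg (4 libraries). Paclitaxel, which stabilises microtubules, was taken up in DMSO and thinned with saline, and oxaliplatin, a platinum compound, in glucose solution, each given into the peritoneum to produce neuropathic pain. With 1 vehicle group, a difference from vehicle and the effect of a solvent cannot be told apart. The strain, age and time of sampling are not given in the sources used here, and the labels do not say that the replicates of a group were separate animals, so the p-values speak only to these samples, whose spread may be technical. The comparisons ask how each receptor stood after each drug against vehicle, and after one drug against the other.

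A dorsal root ganglion holds the cell bodies of the sensory neurons that carry touch, temperature and pain to the spinal cord, wrapped in satellite glia. Receptors of this class act through Gi and Go proteins: the alpha subunit lowers adenylyl cyclase activity, while the beta-gamma pair opens inwardly rectifying potassium channels and holds back voltage-gated calcium channels. On the central endings of sensory neurons this reduces transmitter release, which is how opioids, cannabinoids and the GABA-B agonist baclofen act on these cells. The GABA-B receptor works only as a pair, in which Gabbr1 binds the ligand, and Gabbr2 carries it to the cell surface and engages the G protein.

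The promoters of 8 of the 10 genes were found in a RefSeq table of assembly GRCr8, Cnr1 and Oprl1 being the others. The build behind the expression tables is not given in the sources used here, and the positions are those of RefSeq. The stretches below are the 250 bases before the annotated start of the GABA-B pair, whose proteins are needed together, and of Oprm1 and Npy1r. In counts scaled to library size, the oxaliplatin libraries of Oprm1 and Npy1r stood apart from vehicle. With scaling to transcript length as well, only those of Npy1r did. The stretches read 5′ to 3′ on the gene's strand in lower case, and capitals mark GC boxes (GGGCGG, or CCGCCC for the opposite strand). The Gabbr1 promoter lies at chr20:1499237-1499486 (minus strand), that of Gabbr2 at chr5:66083696-66083945 (minus strand), that of Oprm1 at chr1:45585733-45585982 (plus strand) and that of Npy1r at chr16:27813388-27813637 (minus strand).
Gabbr1: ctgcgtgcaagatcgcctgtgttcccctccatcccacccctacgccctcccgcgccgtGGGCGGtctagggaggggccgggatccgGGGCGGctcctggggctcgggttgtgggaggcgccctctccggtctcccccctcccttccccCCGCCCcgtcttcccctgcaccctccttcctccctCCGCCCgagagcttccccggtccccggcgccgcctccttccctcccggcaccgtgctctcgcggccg
Gabbr2: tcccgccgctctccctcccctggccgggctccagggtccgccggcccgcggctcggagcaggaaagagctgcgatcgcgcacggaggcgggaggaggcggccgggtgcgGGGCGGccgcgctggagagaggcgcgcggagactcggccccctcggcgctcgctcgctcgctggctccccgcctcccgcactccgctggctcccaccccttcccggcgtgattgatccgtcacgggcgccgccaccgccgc
Oprm1: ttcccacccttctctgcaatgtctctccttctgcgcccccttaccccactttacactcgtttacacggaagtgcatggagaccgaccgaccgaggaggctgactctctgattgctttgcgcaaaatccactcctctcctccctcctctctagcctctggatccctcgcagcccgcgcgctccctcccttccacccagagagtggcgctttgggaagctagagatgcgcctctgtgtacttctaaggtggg
Npy1r: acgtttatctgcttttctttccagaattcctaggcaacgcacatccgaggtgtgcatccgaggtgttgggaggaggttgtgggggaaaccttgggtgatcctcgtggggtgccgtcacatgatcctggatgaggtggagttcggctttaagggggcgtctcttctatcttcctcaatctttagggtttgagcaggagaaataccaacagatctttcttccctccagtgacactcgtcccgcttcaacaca
The Gabbr1 promoter held 4 GC boxes and the Gabbr2 promoter held 1, and those of Oprm1 and Npy1r held 0. Of the 8 promoters, 5 held at least 1 (also Oprd1, Galr1 and Chrm2), against 55.6% of the 12194 promoters of tested genes over the same 250 bases. The shares of G and C were 78.8% in Gabbr2, 75.6% in Gabbr1, 58.4% in Oprm1 and 51.6% in Npy1r, beside a median of 59.6% over all promoters. A cAMP response element (TGACGTCA, both strands) was found in 0 of the 8 and in 2.75% of promoters, and an AP-1 site (TGANTCA) in 0 of the 8 and in 4.48%. TATAAA was found in 0 of the 8 and in 7.04%, and CCAAT in 1 of the 8 (Galr1) and in 34.9%. These are matches of letters in a fixed window and say nothing of binding.

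Depth was even, with estimated counts adding up to 17008728 in the smallest library and 17615736 in the largest. All 16 markers of neurons were detected, and their summed level was 14882 to 16385 CPM (counts scaled to library size) in vehicle, 16569 to 20328 after paclitaxel and 13211 to 15801 after oxaliplatin. A neuron score, the mean log2 CPM of these markers minus the vehicle mean, ran from -0.07 to 0.09 in vehicle, from 0.06 to 0.36 after paclitaxel and from -0.25 to 0.02 after oxaliplatin. All 16 markers were higher after paclitaxel than in vehicle and 15 of 16 were lower after oxaliplatin (0 passing the edgeR test in either comparison, with 10 and 3 at an unadjusted p under 0.05, 1 and 0 called by DESeq2 and 9 and 0 by voom), and between the drugs all 16 were lower after oxaliplatin, 7 of them past the test. Paclitaxel replicate 4 had the lowest score of its group and oxaliplatin replicate 4 the highest of its own, and these libraries also lay apart for several receptors below. Red blood cell markers, of which 9 of 11 passed the test between the drugs, all higher after oxaliplatin, had a summed level of 2277 to 4318 CPM in vehicle, 1087 to 2769 after paclitaxel and 5002 to 16972 after oxaliplatin, and those of macrophages summed to 225 to 416, 109 to 206 and 249 to 321 CPM. Between the drugs 11.3% of all tested genes passed. Markers of other cells passed there as well, all higher after oxaliplatin: 5 of 12 for macrophages, 5 of 8 for fibroblasts and 4 of 8 for endothelium. So did 3 of 8 for pericytes and smooth muscle, 5 of 7 for adipocytes and 5 of 7 for B cells. The counts were 0 of 8 for satellite glia, 0 of 8 for Schwann cells, 0 of 7 for neutrophils, 0 of 2 for T cells and 0 of 4 for spinal cord. Of neuron subtypes, 4 of 10 non-peptidergic and 1 of 8 peptidergic nociceptor markers passed, all lower. For large myelinated neurons, 3 of 10 passed lower and 1 higher. The fibroblast markers summed to 2555 to 3676 CPM in vehicle, 1985 to 2618 after paclitaxel and 3478 to 4242 after oxaliplatin. Against vehicle, 3 of 7 adipocyte markers passed higher after oxaliplatin, beside 1.76% of all tested genes. Markers of neuron subtypes passed lower there, 2 of 10 for large myelinated neurons and 1 of 10 for non-peptidergic nociceptors. After paclitaxel, 1 of 12 macrophage markers passed against vehicle, lower, beside 0.12% of all tested genes. DESeq2 and voom each called 8 of the 12. All 12 were lower there, as were all 8 of satellite glia, 8 of fibroblasts, 11 of red blood cells and 7 of neutrophils, 0 of these others past the edgeR test. Ltf (neutrophils), Trat1 (T cells) and Mnx1 (spinal cord) were at 0 in every paclitaxel library. No other marker of these lists was at 0 in every library of a group, and the part of these cells in the receptor values was not tested. In whole ganglia, fewer cells of a type and less RNA per cell cannot be told apart.

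The receptors spanned a wide range of levels. On the scale of FPKM, which divides counts by both transcript length and library size, Gabbr1 was the most abundant in vehicle at 125.6 ± 6.16 (SD, n = 4), above 95.6% of tested genes. Gabbr2 followed at 39.2 ± 3.99 FPKM and Adora1 at 34.0 ± 2.83, and the libraries of these neighbours overlapped. Npy1r stood alone at 17.0 ± 0.763 FPKM, the 4th of the 10 in each of the 12 libraries. Cnr1 (8.29 ± 0.752 FPKM), Oprl1 (8.28 ± 0.694) and Oprm1 (7.45 ± 1.35) lay together near the middle of all tested genes, with overlapping libraries. Galr1 (4.28 ± 0.970 FPKM) and Chrm2 (3.70 ± 0.486) also overlapped. Oprd1 was the lowest in every library, at 0.895 ± 0.133 FPKM in vehicle, above 12.4% of tested genes. The order at its ends held under both drugs: Gabbr1 was first, Npy1r 4th and Oprd1 last in all 12 libraries, while Oprm1 ranged from 6th to 9th.

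**Figure D1:**
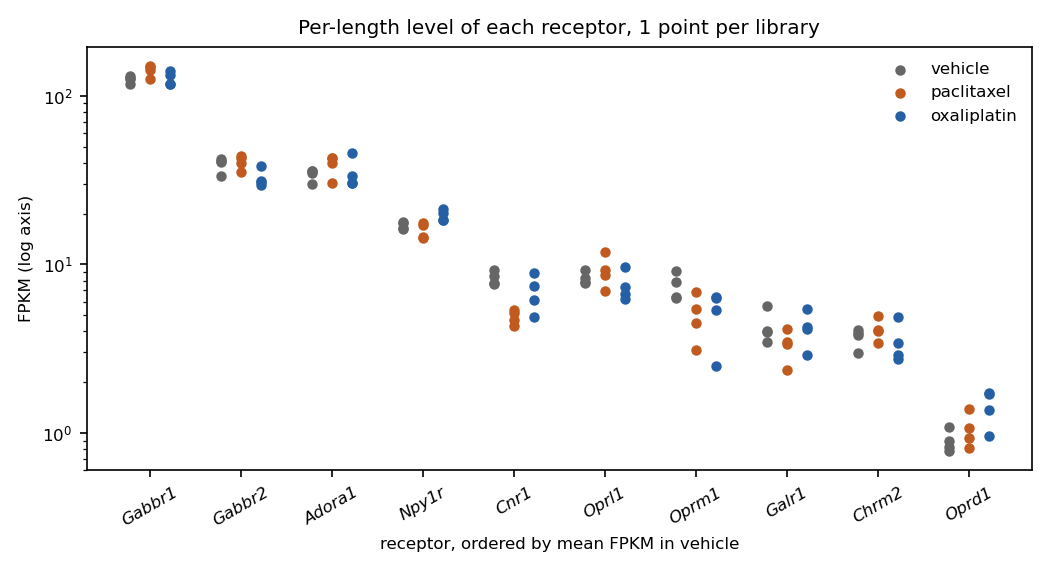
FPKM of each receptor on a log axis, with 1 point per library and the receptors ordered by their mean in vehicle. Gabbr1 lies above all others at 125.6 in vehicle and Oprd1 below all others at 0.895, and the paclitaxel points of Cnr1 lie below its vehicle points.

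After paclitaxel, 0 of the 10 receptors passed the test against vehicle (edgeR, adjusted p under 0.05 over all tested genes), where 0.12% of all tested genes did. At an unadjusted p under 0.05 there were 3 (Cnr1 lower, Gabbr1 and Adora1 higher), beside 17.1% of all genes. DESeq2 called 1 of the 10, Cnr1, beside 251 of all genes, and limma voom called 3, Cnr1, Gabbr1 and Adora1, beside 2017. In 1 receptor, Cnr1, all paclitaxel libraries lay outside the vehicle range, which held for 6.96% of genes. The receptors' median log2 fold change was 0.14, with 6 higher and 4 lower, beside -0.01 over all tested genes. After oxaliplatin, 0 of the 10 passed the test against vehicle, beside 1.76% of all genes, and 3 had an unadjusted p under 0.05 (Oprd1 higher, Cnr1 and Gabbr2 lower), beside 17.2%. DESeq2 called 0 of the 10 here, beside 880 of all genes, and voom 1, Gabbr2, beside 599. In CPM, groups stood apart in 2 receptors, Oprm1 lower and Npy1r higher, beside 11.3% of genes. In FPKM they did in 1, Npy1r. The median was -0.09 with 3 higher and 7 lower, beside 0.01 over all genes.

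Between the drugs, 1 of the 10 receptors passed the test, Gabbr2, lower after oxaliplatin than after paclitaxel, in a comparison where 11.3% of all tested genes passed. At an unadjusted p under 0.05 there were 5 (Oprl1, Gabbr1 and Gabbr2 lower, Cnr1 and Npy1r higher), beside 29.4%. Groups stood apart in 1, Npy1r, beside 15.3%, and the median was -0.09, with 5 higher and 5 lower, beside 0.0042 over all genes. The share of receptors that passed, 1 of 10, was near that of all genes. DESeq2 called 2 (Gabbr1, Gabbr2), beside 2802 of all genes, and voom 6 (these and Oprl1, Cnr1, Adora1 and Chrm2), beside 4726. Without paclitaxel replicate 4 there were 5 receptors called, beside 3463 of all genes. Without oxaliplatin replicate 4 there were 4, beside 2252 of all genes, and Gabbr2 was among the receptors called each time. The 3 comparisons share libraries, so their values are set side by side and are not independent of each other.

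**Figure D2:**
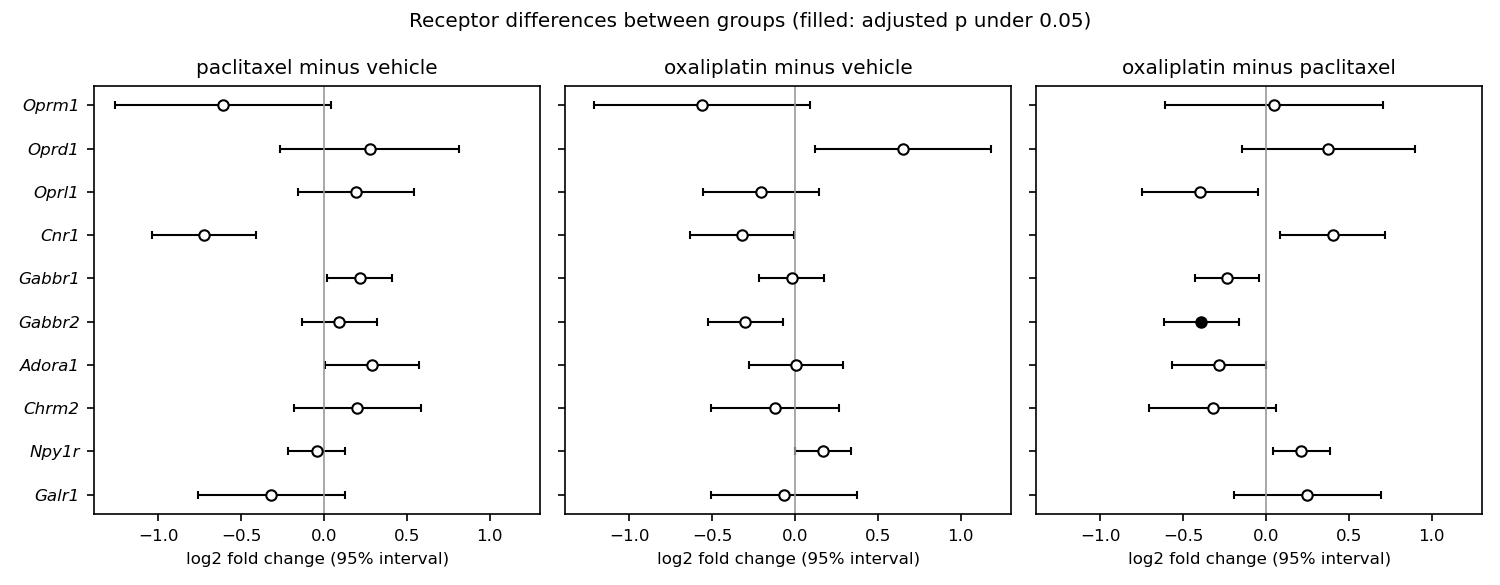
Log2 fold change of each receptor in each comparison with its 95% interval, a filled point marking an adjusted p under 0.05. The only filled point is Gabbr2 between the drugs, at -0.39, and the point farthest from 0 is Cnr1 after paclitaxel, at -0.72.

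**Figure D3:**
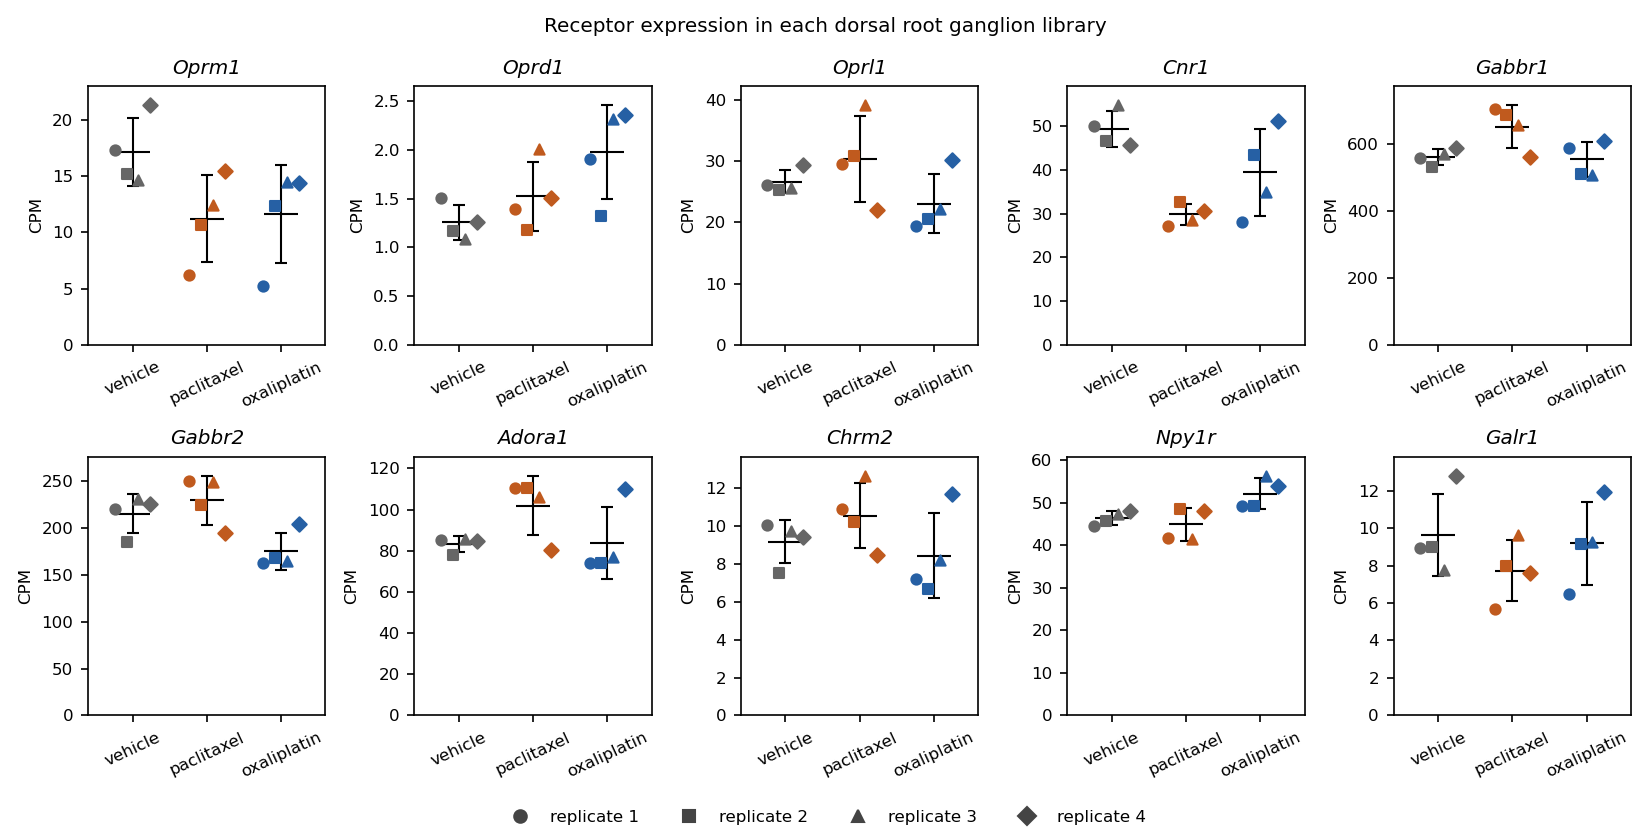
CPM of each receptor in each library, with 1 symbol per replicate number and bars for the group mean and SD (n = 4). The 4 paclitaxel libraries of Cnr1 sit below its 4 vehicle libraries, and those of Oprm1 run from 6.23 to 15.4 CPM.

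None of the 3 opioid receptors passed the test in edgeR's fit of all 12 libraries. Oprm1 encodes the mu receptor, through which morphine acts. Its levels were 17.3, 15.2, 14.6 and 21.3 CPM in vehicle replicates 1 to 4, 6.23, 10.7, 12.4 and 15.4 after paclitaxel and 5.25, 12.3, 14.5 and 14.4 after oxaliplatin. All 4 oxaliplatin libraries lay below the lowest vehicle library (14.5 against 14.6 CPM for the nearest pair), while the highest paclitaxel library lay inside the vehicle range. The log2 fold change was -0.61 ± 0.30 (SE, 95% interval -1.26 to 0.04, adjusted p = 0.314, edgeR) after paclitaxel, a mean level 1.53-fold lower, and -0.56 ± 0.30 (SE, 95% interval -1.21 to 0.09, adjusted p = 0.365, edgeR) after oxaliplatin, 1.48-fold lower. Neither passed the test, and both intervals include 0. Replicate 1 was the lowest of each drug group, and the log2 fold change was -0.41 without it after paclitaxel and -0.32 without it after oxaliplatin. Between the drugs Oprm1 differed by 0.05 ± 0.30 (SE, 95% interval -0.61 to 0.71, adjusted p = 0.939, edgeR). The length the deposited tables use for this gene varied from 1879 to 2351 bases between libraries. The deposited table of vehicle replicate 1 lists 14 transcripts for it. On the FPKM scale the oxaliplatin libraries (2.49 to 6.44) and the vehicle libraries (6.32 to 9.17) overlapped.

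Oprd1, the delta receptor, was scarce, with 19 to 42 reads per library. Its levels were 1.502, 1.17, 1.09 and 1.26 CPM in vehicle, 1.39, 1.17, 2.01 and 1.51 after paclitaxel and 1.91, 1.32, 2.32 and 2.36 after oxaliplatin. Of the oxaliplatin libraries 3 of 4 lay above all vehicle libraries, and the groups overlapped. The log2 fold change after oxaliplatin was 0.65 ± 0.25 (SE, 95% interval 0.12 to 1.18, adjusted p = 0.195, edgeR) and after paclitaxel 0.28 ± 0.25 (SE, 95% interval -0.26 to 0.81, adjusted p = 0.547, edgeR). Counting error alone was 21.4% of a vehicle value, more than the 14.3% spread between vehicle libraries. The error and the spread were 19.7% and 23.4% after paclitaxel, and 17.0% and 24.4% after oxaliplatin. Neither difference from vehicle passed the test, and the part of depth in this was not tested.

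Oprl1 encodes the receptor of nociceptin, an opioid-like peptide that does not bind the classical opioid receptors. Its levels were 26.1, 25.3, 25.6 and 29.4 CPM in vehicle, 29.6, 30.9, 39.1 and 22.01 after paclitaxel and 19.5, 20.5, 22.1 and 30.1 after oxaliplatin. Paclitaxel libraries 1 to 3 were above all vehicle libraries and library 4 below them, while oxaliplatin libraries 1 to 3 were below all vehicle libraries and library 4 above them. The difference between the drugs was -0.40 ± 0.16 (SE, 95% interval -0.75 to -0.05, adjusted p = 0.123, edgeR). It passed the test without paclitaxel replicate 4 (-0.53, adjusted p = 0.0233, edgeR) and without oxaliplatin replicate 4 (-0.56, adjusted p = 0.0324, edgeR). With each of the 12 libraries left out in turn, only these 2 passed, and it ran from -0.56 to -0.25 with adjusted p up to 0.353 (edgeR). Against vehicle the log2 fold change was 0.19 ± 0.16 (SE, 95% interval -0.16 to 0.54, adjusted p = 0.519, edgeR) for paclitaxel and -0.21 ± 0.16 (SE, 95% interval -0.56 to 0.15, adjusted p = 0.565, edgeR) for oxaliplatin.

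Cnr1, the receptor of endocannabinoids and of tetrahydrocannabinol, was the receptor farthest from its vehicle level after paclitaxel. It measured 50.04, 46.6, 54.8 and 45.7 CPM in vehicle, 27.3, 32.7, 28.6 and 30.7 after paclitaxel and 28.2, 43.4, 35.02 and 51.2 after oxaliplatin. Every paclitaxel library was below every vehicle library (32.7 against 45.7 CPM for the nearest pair), and each group was tight (8.36% and 8.02% of the mean). The oxaliplatin libraries spread over both ranges, from near the lowest paclitaxel library to inside the vehicle range. The mean was 1.65-fold lower after paclitaxel, a log2 fold change of -0.72 ± 0.15 (SE, 95% interval -1.04 to -0.41, adjusted p = 0.0975, edgeR). It missed the threshold that only 19 genes of the table passed. DESeq2 called it (-0.72, adjusted p = 0.00181), as did voom (-0.70, adjusted p = 0.0109) and edgeR on only these 2 groups (-0.72, adjusted p = 0.0098). These were the only 3 of the 10 alternatives that called it, and over the 10 the log2 fold change ran from -0.80 to -0.66. It was also called without paclitaxel replicate 4 (adjusted p = 0.0272, edgeR), without oxaliplatin replicate 1 (0.0260) and without oxaliplatin replicate 4 (0.0299), and over all 12 libraries left out in turn the log2 fold change stayed between -0.77 and -0.67 with adjusted p from 0.0260 to 0.306. After oxaliplatin it was -0.32 ± 0.15 (SE, 95% interval -0.63 to -0.01, adjusted p = 0.276, edgeR), and between the drugs 0.40 ± 0.15 (SE, 95% interval 0.09 to 0.72, adjusted p = 0.0898, edgeR). That last difference passed without oxaliplatin replicate 1, the lowest of its group (0.53, adjusted p = 0.0265, edgeR). No other leave-out passed for it, with values down to 0.25 and adjusted p up to 0.210 (edgeR). The estimated count of Cnr1 was not whole in any of the 12 libraries, as it is where reads are divided with other genes, so its level is uncertain to that degree. The same holds for Gabbr1, Gabbr2 and Npy1r, and the counts of the other 6 receptors were whole in all libraries.

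Of the GABA-B pair, Gabbr2 passed the test between the drugs and Gabbr1 did not, and the difference between the subunits is tested by their ratio further on. Gabbr1 measured 556, 530.1, 569 and 588 CPM in vehicle, 704, 685, 654 and 560.4 after paclitaxel and 588, 511, 507 and 607 after oxaliplatin. Paclitaxel libraries 1 to 3 lay above all vehicle libraries and library 4 inside their range, and the oxaliplatin libraries lay on both sides of it. The log2 fold change was 0.21 ± 0.09 (SE, 95% interval 0.02 to 0.41, adjusted p = 0.265, edgeR) after paclitaxel and -0.02 ± 0.09 (SE, 95% interval -0.22 to 0.18, adjusted p = 0.938, edgeR) after oxaliplatin. Between the drugs it was -0.24 ± 0.09 (SE, 95% interval -0.43 to -0.04, adjusted p = 0.105, edgeR).

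Gabbr2 was lower after oxaliplatin than after paclitaxel, the 1 receptor difference that passed the test. Its levels were 220.3, 186, 231 and 225 CPM in vehicle (216 ± 20.4, SD, n = 4), 249.8, 225, 249.6 and 195 after paclitaxel (229.8 ± 26.2) and 163, 169, 164 and 205 after oxaliplatin (175 ± 19.8). Oxaliplatin libraries 1 to 3 lay below all vehicle and paclitaxel libraries, and library 4 lay inside both ranges. The mean after oxaliplatin was 1.31-fold lower than after paclitaxel, a log2 difference of -0.39 ± 0.11 (SE, 95% interval -0.62 to -0.16, adjusted p = 0.0318, edgeR), with all 4 oxaliplatin libraries under the paclitaxel mean. Against vehicle it was -0.30 ± 0.11 (SE, 95% interval -0.52 to -0.07, adjusted p = 0.166, edgeR) after oxaliplatin and 0.09 ± 0.11 (SE, 95% interval -0.13 to 0.32, adjusted p = 0.637, edgeR) after paclitaxel. The call between the drugs was lost when any of paclitaxel replicates 1 to 3 or oxaliplatin replicates 1 to 3 was left out (adjusted p from 0.0710 to 0.0973, edgeR), and kept without each of the other 6 libraries. It was also lost with library totals as the only scaling, with limma-trend on FPKM and with only the 2 drug groups in the fit (adjusted p from 0.0587 to 0.0709). In all, 4 of the 10 alternatives kept the call. With the neuron score of each library as a covariate the difference was 0.05 (adjusted p = 0.833, edgeR), and the scores of the 2 drug groups did not overlap, so drug and score cannot be told apart in that fit.

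The balance of the pair was measured within each library, where library size cancels. Gabbr2 stood at 32.1%, 28.4%, 32.9% and 31.1% of Gabbr1 FPKM in vehicle, 28.8%, 26.6%, 30.9% and 28.1% after paclitaxel and 22.4%, 26.8%, 26.3% and 27.3% after oxaliplatin. The oxaliplatin libraries lay below every vehicle library, with the paclitaxel libraries between and overlapping both. The mean was 31.1% ± 1.97 (SD, n = 4) in vehicle, 28.6% ± 1.78 after paclitaxel and 25.7% ± 2.21 after oxaliplatin. On the log2 scale the ratio differed from vehicle by -0.28 after oxaliplatin (exact two-sided permutation test, p = 0.0286, the smallest 4 against 4 can give, 0.0857 adjusted over the 3 comparisons). It differed by -0.12 after paclitaxel (exact permutation p = 0.114, adjusted 0.114) and by -0.16 between the drugs (exact permutation p = 0.0857, adjusted 0.114). No ratio difference passed after adjustment. With 4 against 4 libraries, a difference could pass only if another comparison also gave the smallest p, 0.0286. The adjusted test therefore could not decide on oxaliplatin against vehicle by itself, although those groups did not overlap.

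**Figure D4:**
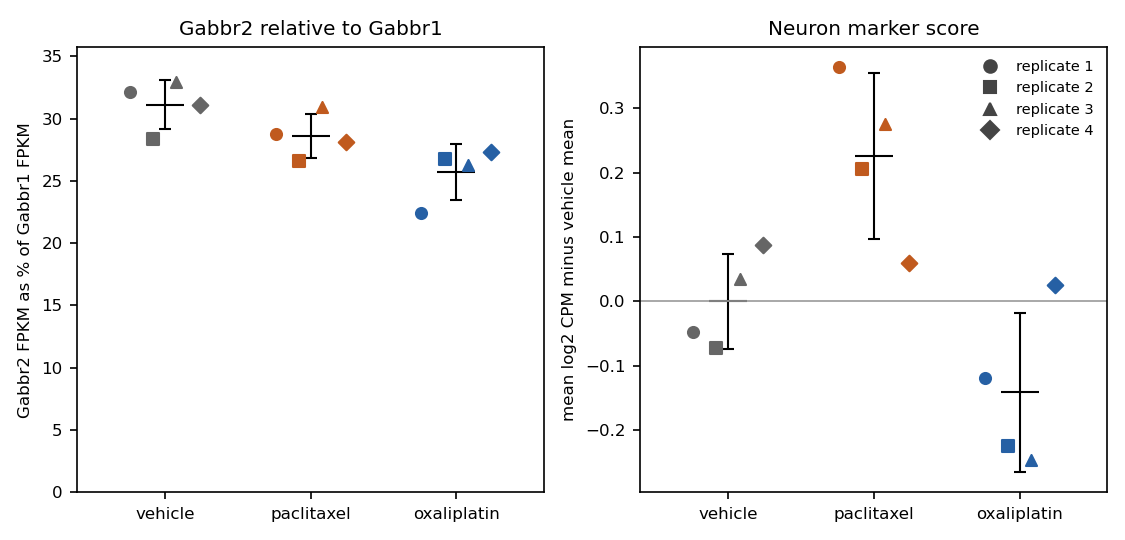
Left, Gabbr2 FPKM as a percent of Gabbr1 FPKM in each library, and right, the neuron score in each library, with bars for the mean and SD (n = 4). The 4 oxaliplatin ratios (22.4% to 27.3%) lie below the 4 vehicle ratios (28.4% to 32.9%), and the neuron scores of paclitaxel and oxaliplatin do not overlap.

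Adora1, through which adenosine quiets neurons, and Chrm2, an acetylcholine receptor known best from the heart, followed the same libraries. Adora1 measured 85.2, 77.7, 85.8 and 84.8 CPM in vehicle, 111, 111, 106 and 80.4 after paclitaxel and 74.1, 74.1, 76.8 and 110.2 after oxaliplatin. In paclitaxel libraries 1 to 3 it was above, and in oxaliplatin libraries 1 to 3 below, all vehicle libraries, while paclitaxel library 4 lay inside the vehicle range and oxaliplatin library 4 among the paclitaxel libraries. The log2 fold change was 0.29 ± 0.13 (SE, 95% interval 0.01 to 0.57, adjusted p = 0.284, edgeR) after paclitaxel, 0.01 ± 0.13 (SE, 95% interval -0.28 to 0.29, adjusted p = 0.986, edgeR) after oxaliplatin and -0.28 ± 0.13 (SE, 95% interval -0.57 to 0.00082, adjusted p = 0.171, edgeR) between the drugs. Without paclitaxel replicate 4 the difference between the drugs was -0.38 (adjusted p = 0.0400, edgeR), and without oxaliplatin replicate 4 it was -0.45 (adjusted p = 0.0182, edgeR). Only these 2 of the 12 leave-outs passed, and over all 12 it ran from -0.45 to -0.23 with adjusted p up to 0.355 (edgeR). Chrm2 measured 10.1, 7.54, 9.73 and 9.41 CPM in vehicle, 10.9, 10.2, 12.7 and 8.48 after paclitaxel and 7.22, 6.66, 8.19 and 11.7 after oxaliplatin, with overlap between all groups. Its difference between the drugs was -0.32 ± 0.18 (SE, 95% interval -0.71 to 0.06, adjusted p = 0.247, edgeR), and -0.52 (adjusted p = 0.0444, edgeR) without oxaliplatin replicate 4. That was the 1 leave-out of 12 that passed, and the range over them was -0.52 to -0.22 with adjusted p up to 0.510 (edgeR). Chrm2 was also compared with vehicle. It differed from vehicle by 0.20 ± 0.18 (SE, 95% interval -0.18 to 0.58, adjusted p = 0.536, edgeR) after paclitaxel and by -0.12 ± 0.18 (SE, 95% interval -0.51 to 0.26, adjusted p = 0.784, edgeR) after oxaliplatin.

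A set of 5 receptors, Oprl1, Gabbr1, Gabbr2, Adora1 and Chrm2, was lowest of the vehicle group in replicate 2, lowest of the paclitaxel group in replicate 4 and highest of the oxaliplatin group in replicate 4. These are also the libraries with the lowest, lowest and highest neuron score of their groups (-0.07, 0.06 and 0.02). The set was chosen after its values were seen, and its likeness to the score is a description with no test. With the score of its library taken from the log2 CPM of each gene, the difference between the drugs was -0.02 for Oprl1, 0.13 for Gabbr1, -0.02 for Gabbr2, 0.08 for Adora1 and 0.03 for Chrm2. None of the other 5 receptors was lowest in vehicle replicate 2 or in paclitaxel replicate 4. Oprd1, Cnr1 and Galr1 shared the third extreme, being highest in oxaliplatin replicate 4. Oprm1, Cnr1 and Galr1 were lowest in paclitaxel replicate 1. Taken the same way, Cnr1 was -0.95 from vehicle after paclitaxel and 0.74 higher after oxaliplatin than after paclitaxel, with no overlap of groups in either. Groups also stood apart on this measure for Gabbr1 of the set, 0.12 above vehicle and 0.13 above paclitaxel after oxaliplatin, and for Oprd1, 0.73 above vehicle after oxaliplatin. Over all tested genes, 12% stood apart in this way between paclitaxel and vehicle, 14.7% between oxaliplatin and vehicle and 30.4% between the drugs.

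Npy1r, which binds the peptide NPY, had the tightest vehicle group of the 10, with a spread of 3.45% of the mean. It measured 44.4, 45.7, 47.2 and 47.98 CPM in vehicle, 41.7, 48.5, 41.4 and 48.03 after paclitaxel and 49.1, 49.1, 56.3 and 53.9 after oxaliplatin. All 4 oxaliplatin libraries were above all 8 others. The mean after oxaliplatin was 1.12-fold that of vehicle, a log2 fold change of 0.17 ± 0.08 (SE, 95% interval -0.0017 to 0.34, adjusted p = 0.296, edgeR), and 1.16-fold that of paclitaxel, 0.21 ± 0.08 (SE, 95% interval 0.04 to 0.39, adjusted p = 0.0955, edgeR). Neither passed the test. The difference between the drugs passed in 3 of 10 alternatives, library totals only (0.29, adjusted p = 0.0463, edgeR) and limma-trend on the log2 of FPKM with 1 or 0.1 added (0.28 and 0.30, adjusted p = 0.0474 and 0.0484), and without paclitaxel replicate 4 (0.25, adjusted p = 0.0495, edgeR). No other leave-out passed, with values down to 0.17 and adjusted p up to 0.264 (edgeR). Paclitaxel and vehicle differed by -0.04 ± 0.08 (SE, 95% interval -0.22 to 0.13, adjusted p = 0.773, edgeR). With the neuron score taken off, Npy1r stood 0.31 above vehicle and 0.58 above paclitaxel after oxaliplatin, again with no overlap.

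Galr1, a receptor of galanin, a peptide that injured sensory neurons are known to make, measured 8.96, 9.002, 7.78 and 12.8 CPM in vehicle, 5.68, 7.98, 9.65 and 7.61 after paclitaxel and 6.47, 9.13, 9.26 and 11.9 after oxaliplatin. The groups overlapped, and within vehicle the spread was 22.7% of the mean, the widest of the 10. The log2 fold change was -0.32 ± 0.21 (SE, 95% interval -0.76 to 0.13, adjusted p = 0.4098, edgeR) after paclitaxel, -0.07 ± 0.21 (SE, 95% interval -0.51 to 0.37, adjusted p = 0.906, edgeR) after oxaliplatin and 0.25 ± 0.21 (SE, 95% interval -0.19 to 0.69, adjusted p = 0.447, edgeR) between the drugs. Its ligand gene, Gal, rose after paclitaxel from 8.39 ± 2.14 to 32.03 ± 6.01 CPM, a log2 fold change of 1.93 ± 0.23 (adjusted p = 0.002398, edgeR). Whether receptor and ligand differed unequally was not tested.

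The other genes of inhibitory signalling were taken from lists of ligands and their enzymes (17 tested of 22), further receptors of the class (27 of 36), G protein subunits (19 of 20), effectors (22 of 22) and signal regulators (31 of 31). After paclitaxel, 1 ligand gene rose, Gal, and 0 genes of the other lists passed the edgeR test. The share over the 5 lists was 1 of 116, or 0.862%, beside 0.12% of all tested genes. At an unadjusted p under 0.05 there were 5 ligand genes, 5 further receptors, 5 G proteins, 6 effectors and 8 regulators, 29 of 116 in all, beside 17.1% of all tested genes. DESeq2 called 1, 1, 2, 0 and 1 genes of the lists in that order, and voom called 3, 4, 5, 7 and 7, where they called 251 and 2017 of all genes. The medians were 0.11 for ligands, 0.04 for further receptors, -0.0021 for G proteins, 0.07 for effectors and 0.02 for regulators, beside -0.01 over all genes. By the smallest p of their lists, P2ry13, a purinergic receptor of microglia and macrophages, stood at -1.35 ± 0.27 (adjusted p = 0.0975, edgeR) and Hrh3, the histamine H3 receptor, at 0.64 ± 0.19 (adjusted p = 0.204, edgeR). Among G proteins the same rule gave Gng11 at -1.27 ± 0.33 (adjusted p = 0.1998, edgeR) and Gnaz at 0.38 ± 0.12 (adjusted p = 0.209, edgeR). Among effectors it gave the protein kinase A subunit Prkar1b at 0.39 ± 0.12 (adjusted p = 0.2097, edgeR) and the adenylyl cyclase Adcy2 at 0.31 ± 0.10 (adjusted p = 0.221, edgeR). Among regulators it gave LOC681355, Kctd12b in RefSeq and a relative of the GABA-B auxiliary subunits, at -1.001 ± 0.18 (adjusted p = 0.0623, edgeR) and the receptor kinase Grk4 at -0.58 ± 0.16 (adjusted p = 0.203, edgeR).

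After oxaliplatin 3 of the 116 genes of these lists passed the test against vehicle (2.59%), beside 1.76% of all tested genes. Faah, the enzyme that breaks down the endocannabinoid anandamide, rose from 10.2 ± 1.23 to 14.5 ± 0.698 CPM, by 0.51 ± 0.11 (adjusted p = 0.0336, edgeR) on the log2 scale. Adcy6, an adenylyl cyclase that Gi inhibits, rose from 55.4 ± 4.903 to 71.4 ± 2.005 CPM, by 0.37 ± 0.08 (adjusted p = 0.0394, edgeR). Kctd8, an auxiliary subunit of the GABA-B receptor, fell from 64.9 ± 2.26 to 49.9 ± 4.1 CPM, a log2 fold change of -0.38 ± 0.07 (adjusted p = 0.0231, edgeR). The list medians were 0.0035 for ligands, -0.10 for further receptors, -0.06 for G proteins, -0.03 for effectors and -0.07 for regulators, beside 0.01 over all genes. Of the further receptors, 0 of 27 passed (5 at an unadjusted p under 0.05, 1 called by DESeq2 and 0 by voom), and those with the smallest p were the neuropeptide Y receptor Npy2r at -0.67 ± 0.19 (adjusted p = 0.0982, edgeR) and the glutamate receptor Grm7 at -0.22 ± 0.09 (adjusted p = 0.227, edgeR). Of the G proteins, 0 of 19 passed (3 at an unadjusted p under 0.05, 1 called by DESeq2 and 1 by voom), and those with the smallest p were Gng3 at -0.32 ± 0.09 (adjusted p = 0.0983, edgeR) and Gnb3 at 0.59 ± 0.24 (adjusted p = 0.232, edgeR).

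Between the drugs 15 of the 116 tested genes of the 5 lists passed (12.9%), near the 11.3% of all tested genes. Ligand genes gave 2 of 17, both lower after oxaliplatin: Gal at -2.28 ± 0.23 (adjusted p = 0.000298, edgeR) and the adenosine kinase Adk at -0.34 ± 0.07 (adjusted p = 0.0145, edgeR). Further receptors gave 2 of 27, both lower: Npy2r fell from 11.2 ± 2.35 to 5.68 ± 0.716 CPM, -0.98 ± 0.19 (adjusted p = 0.00975, edgeR), and Grm7 differed by -0.35 ± 0.09 (adjusted p = 0.0253, edgeR). Npy2r and Npy1r bind the same peptide. Npy1r was higher after oxaliplatin than after paclitaxel, by 0.21, which did not pass the test (adjusted p = 0.0955, edgeR). Whether Npy2r and Npy1r differed unequally was not tested. G protein subunits gave 2 higher, Gng11 at 1.18 ± 0.33 (adjusted p = 0.0378, edgeR) and Gng8 at 0.52 ± 0.15 (adjusted p = 0.0379, edgeR), and 1 lower, Gng3 at -0.47 ± 0.09 (adjusted p = 0.00975, edgeR). Effectors gave 3 higher, the cyclases Adcy6 at 0.45 ± 0.08 (adjusted p = 0.00689, edgeR) and Adcy4 at 0.90 ± 0.20 (adjusted p = 0.0172, edgeR) and the potassium channel subunit Kcnj9 at 0.54 ± 0.15 (adjusted p = 0.0379, edgeR).

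The effectors also gave 1 lower, the catalytic subunit of protein kinase A, Prkaca, at -0.36 ± 0.11 (adjusted p = 0.0496, edgeR). Regulators gave 2 higher, LOC681355 at 0.84 ± 0.18 (adjusted p = 0.0148, edgeR) and Gpsm3 at 0.52 ± 0.15 (adjusted p = 0.0381, edgeR), and 2 lower, Kctd8 at -0.31 ± 0.07 (adjusted p = 0.0213, edgeR) and Rgs3, which speeds the shut-off of G proteins, at -0.37 ± 0.09 (adjusted p = 0.0248, edgeR). Kctd8 was lower after oxaliplatin than in either other group, at 49.9 ± 4.10 CPM (SD, n = 4) against 64.9 ± 2.26 in vehicle and 61.7 ± 2.11 after paclitaxel. The list medians were -0.03, -0.14, 0.03, -0.22 and -0.11 in the order above, beside 0.0042 over all genes, and -0.36 over the 16 neuron markers. Fractional estimated counts were seen for Adcy6, Grm7, Gng11, Hrh3, Grk4 and Kcnj9 in all 12 libraries. They were also seen for Faah in 6 libraries and for Rgs3 in 5, so the reads of these genes may be shared with others. Between the drugs DESeq2 called 30 genes of the 5 lists and voom 47, where they called 2802 and 4726 of all genes. The other alternatives and the leaving out of libraries were run for the receptors and not for these genes.

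**Figure D5:**
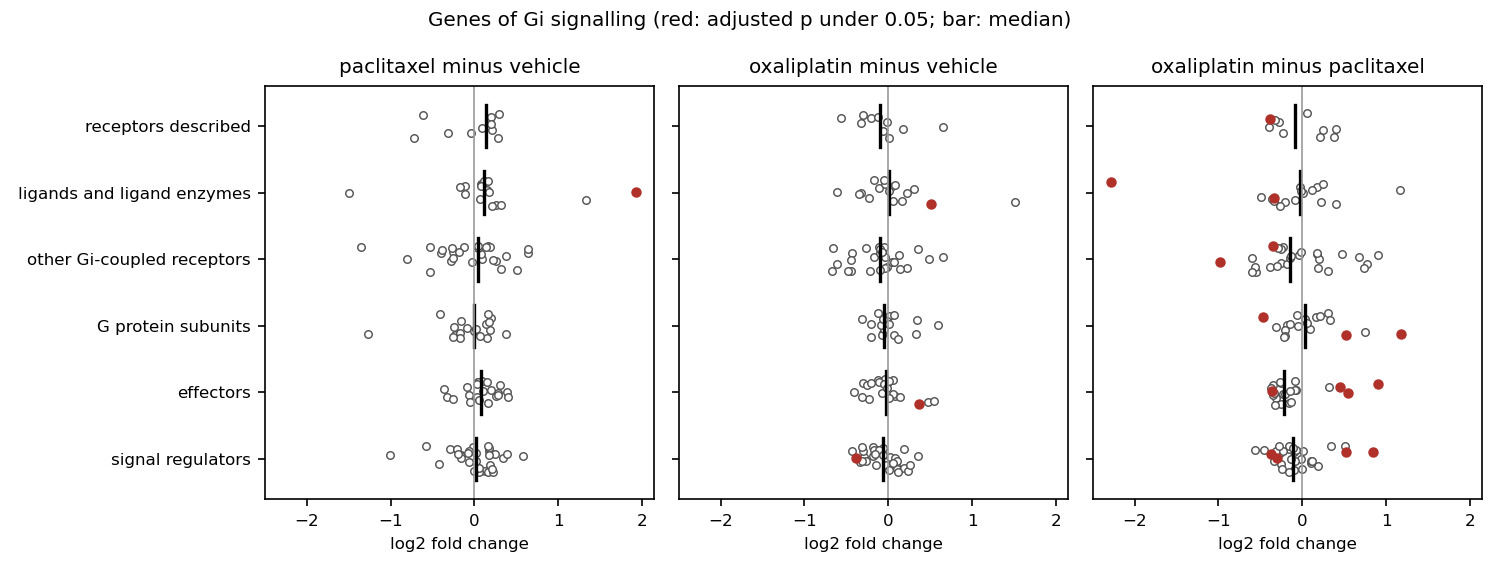
Log2 fold change of each tested gene of the receptors and of the 5 lists in each comparison, red where the adjusted p is under 0.05, with a bar at the list's median. Galanin is the red point at 1.93 after paclitaxel and at -2.28 between the drugs, and most red points lie between the drugs.

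The genes whose pattern over the 12 libraries was most like that of Gabbr2, by the root mean square difference of log2 CPM after each gene's own mean was taken off, were Klhdc8b (0.0443), Aak1, a kinase of clathrin adaptors (0.0543), and Sgpp2, a sphingosine phosphate phosphatase (0.0577). The variation of Gabbr2 itself by the same measure was 0.215. Klhdc8b differed between the drugs by -0.42, Aak1 by -0.33 and Sgpp2 by -0.36 on the log2 scale, beside -0.39 for Gabbr2. Fractional estimated counts of the 3 genes were seen in 12, 9 and 12 libraries. They were picked from the whole table for this likeness, which is a description and no test.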

How the data were processed

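RNA from dorsal root ganglia was sequenced in 12 libraries, 4 per group. Per the file headers, each deposited table gives for every gene an expected count (reads that fit several genes are divided, so it need not be whole), an FPKM value scaled by the authors to transcript length and library size, and the transcript length used. CASAVA 1.4 and Bowtie2 are named in the submitters' processing notes. Counting tool, settings and build are not given in the sources used here. In the deposited tables the lowest FPKM was 0.01, and a gene missing from a table was taken as 0. Of the gene IDs, 92.0% were found in RefSeq's table for GRCr8.

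Expected counts were rounded and fitted with edgeR 4.0.16 (R 4.3.3): default expression filter (15809 genes kept, 4343 set aside), TMM scaling, robust quasi-likelihood fit of 3 group means, two-sided tests, Benjamini-Hochberg adjustment over all tested genes, calls at an adjusted p under 0.05. CPM values use the TMM library sizes, except the summed levels of cell markers, which use the plain library totals. The common dispersion had a square root of 0.159. Chi-square per gene between libraries of a group was 8.07 to 44.9, so no pair agreed within sampling noise. The Gabbr2 to Gabbr1 ratio was compared by exact permutation. Alternatives were DESeq2 1.42.0, voom with quality weights and limma-trend on FPKM (limma 3.58.1), no filter, other scalings, fewer groups, a replicate block, a neuron score covariate and each library left out. On simulated counts for paclitaxel (15689 genes), calls recovered 81% of 2-fold and 98% of 4-fold changes, and 6.28% of calls were unchanged genes. For oxaliplatin (15688 genes) the shares were 80%, 95% and 5.41%. In the simulation each gene was drawn by itself, and no change under 2-fold was planted. The shares therefore do not speak to the receptor differences, which were all smaller than 2-fold.

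The receptors and gene lists were chosen with earlier results of these data known. Named are all 10 receptors, up to 4 called genes per list and comparison by smallest p (otherwise the 2 with the smallest p), and the 3 genes nearest in pattern to a called receptor. Promoters are RefSeq's, GRCr8.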

Additional observations from a re-analysis of the deposited data

Results flagged for a closer look

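In 4 of the 33 groups of 4 values examined (10 receptors and the subunit ratio in 3 groups), 1 library lay far from the other 3, its gap to the nearest being over 0.829 of the group's range. Chance alone marks about 1 in 20 groups of independent, normal values. The 33 groups share the same 12 libraries, so 4 of 33 cannot be read as an excess. Of the 4 flagged, 3 were Adora1: vehicle replicate 2 at 77.7 CPM beside 84.8 to 85.8, paclitaxel replicate 4 at 80.4 beside 106 to 111, and oxaliplatin replicate 4 at 110.2 beside 74.1 to 76.8. The other was Gabbr2 in oxaliplatin replicate 4, at 205 CPM beside 163 to 169. These 3 libraries had the lowest (vehicle, paclitaxel) or highest (oxaliplatin) neuron score of their groups.

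Gabbr2 differed between the drug groups: the log2 fold change of oxaliplatin against paclitaxel was -0.39 (adjusted p = 0.0318, edgeR), lower in 4 of 4 oxaliplatin libraries than the paclitaxel mean. Neither drug group passed against vehicle (adjusted p = 0.166 and 0.637, edgeR), and drug, solvent and neuron score cannot be told apart in this difference.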

How the results depend on the processing

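For paclitaxel against vehicle the receptors called went from 0 to 1 with DESeq2, 3 with voom and 1 with only the 2 groups, and all genes called from 19 to 251 with DESeq2, 2017 with voom and 6 with the neuron score covariate. Leaving out libraries gave 0 to 2 receptors and 10 to 1631 genes, the highest without paclitaxel replicate 4. For oxaliplatin against vehicle the receptors went from 0 to 1 with voom, and genes from 278 to 880 with DESeq2, 599 with voom, 161 with only the 2 groups and 1898 with the covariate. Leaving out libraries gave 0 receptors each time and 49 to 357 genes. Between the drugs the receptors went from 1 to 2 with DESeq2, 6 with voom, 0 with only the 2 groups and 0 with the covariate, and genes from 1788 to 2802, 4726, 1016 and 126. Leaving out libraries gave 0 to 5 receptors and 571 to 3463 genes. With library totals only, genes called between the drugs were 1499 higher and 293 lower, beside 1044 and 744 with TMM, and 189 and 63 beside 166 and 112 for oxaliplatin against vehicle. The cause of these shifts was not tested.

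The labels do not say that replicate numbers pair the samples. Correlations of deviations from the group means ran from -0.23 to 0.16 between same-number libraries and from -0.25 to 0.24 between different-number libraries. With the replicate number as a block 15, 72 and 986 genes and 0, 0 and 0 receptors were called in the 3 comparisons. The Gabbr2 difference between the drugs was then -0.39 (adjusted p = 0.0634, edgeR).

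With the neuron score as covariate the sign turned after paclitaxel for Oprl1 (-0.20), Gabbr1 (-0.011), Gabbr2 (-0.18), Adora1 (-0.072), Chrm2 (-0.21) and Npy1r (0.0084), after oxaliplatin for Oprl1 (0.022), Gabbr1 (0.12), Chrm2 (0.11) and Galr1 (0.025), and between the drugs for Oprm1 (-0.33), Oprl1 (0.22), Gabbr1 (0.13), Gabbr2 (0.055), Adora1 (0.28) and Chrm2 (0.33). For oxaliplatin against vehicle, Adora1 (0.0069) turned with DESeq2 (-0.0026), voom (-0.074), no filter (-0.0018) and RLE scaling (-0.00088), and Gabbr1 (-0.02) with FPKM (0.010 with either pseudocount) and library totals (0.012). Leaving out a library turned Adora1 (-0.16 to 0.062), Gabbr1 (-0.077 to 0.016) and Galr1 (-0.23 to 0.10) after oxaliplatin and Oprm1 (-0.15 to 0.29) between the drugs. Gabbr2 between the drugs lost its call with limma-trend on FPKM (-0.30 and -0.31), library totals (-0.31) and only the 2 groups (-0.39), with adjusted p from 0.0587 to 0.0709.

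The ratio of the GABA-B subunits kept its sign. From expected counts it was -0.12, -0.28 and -0.16 in the 3 comparisons, and leaving out a library gave -0.16 to -0.09, -0.32 to -0.21 and -0.19 to -0.09. With 3 against 4 libraries the smallest exact p, 0.0571, cannot pass. Oprd1 had the fewest reads of the 10 receptors, and the part of depth in its results was not tested.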
